A study of Mus musculus with 30 samples.

Results

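THY1-selected germ cell preparations of the mouse testis were compared between postnatal day 14 (P14) and postnatal day 12 (P12). They make up 3 of the 30 samples of the series, 2 libraries at P12 and 1 at P14, chosen by the marker and the age in their labels. The series follows spermatogonia, the mitotic germ cells of the testis, after birth by RNA sequencing, bisulfite sequencing and chromatin immunoprecipitation. RNA was measured in cells taken at P0, P7, P12 and P14, and the deposited table holds 20889 genes in 11 columns, with 1 value per gene and group. Both THY1 groups came from C57BL/6 mice with no stated transgene or treatment, and their cells were pulled out with magnetic beads against CD90.2, the surface protein THY1. Cells pulled out of the same strain with beads against CD117, the receptor KIT, at P12 (2 libraries) and P14 (1 library) served for comparison. Other columns hold germ cells sorted by fluorescence, among them P7 cells of Oct4-GFP and Id4-GFP mice. The number of animals and the purity of the bead selections are not given in the sources used here.

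Values were FPKM, fragment counts scaled to transcript length and sequencing yield, which are per length, so that levels of different genes can be set side by side. A difference is that of log2(FPKM + 1), P14 minus P12, which makes differences of weakly expressed genes look smaller than they are. Because each group has 1 value, no spread between replicates could be estimated, no test was run, and every value describes these libraries only. Age cannot be told apart from whatever else differed between the P12 and P14 preparations. A gene was counted as higher or lower at a 4-fold difference on this scale, or at 2-fold where stated, if the larger of its values reached 5 FPKM.

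In the mouse the first germ cells to enter meiosis do so as a wave, and in the second week after birth the tubules fill step by step with cells at later stages of meiotic prophase. Spermatogonia give rise to spermatocytes, which break and repair their DNA, pair their chromosomes along the synaptonemal complex and pass through the long pachytene stage. Pachytene cells silence the X and Y chromosomes and switch on many genes whose proteins serve later in the acrosome and tail of the sperm. Sertoli cells are the somatic nurse cells of the same tubules.

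Many genes of the pachytene stage and of sperm structure were 4-fold or more higher in THY1 cells at P14 than at P12, and most Sertoli markers were 4-fold or more lower. By the 4-fold rule 699 genes were higher at P14 (3.35% of all genes) and 582 were lower (2.79%). At 2-fold, 1684 were higher (8.06%) and 1760 lower (8.43%). Over the 14200 genes with at least 1 FPKM in at least 2 columns the median difference was -0.12. Of these 15.2% were 2-fold lower, counted without the 5 FPKM minimum. Among the higher genes 179 differed by 16-fold or more and 134 reached 100 FPKM. Their median level was 1.90 FPKM at P12 and 33.1 FPKM at P14, whereas the lower genes had a median of 25.9 FPKM at P12 and 2.21 FPKM at P14. The higher genes held 1.71% of the summed FPKM at P12 and 16.3% at P14, and the lower genes 7.83% and 0.799%. These shares leave out Rmrp, a small structural RNA that alone made up 37.6% and 32.2% of the sums.

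**Figure D1:**
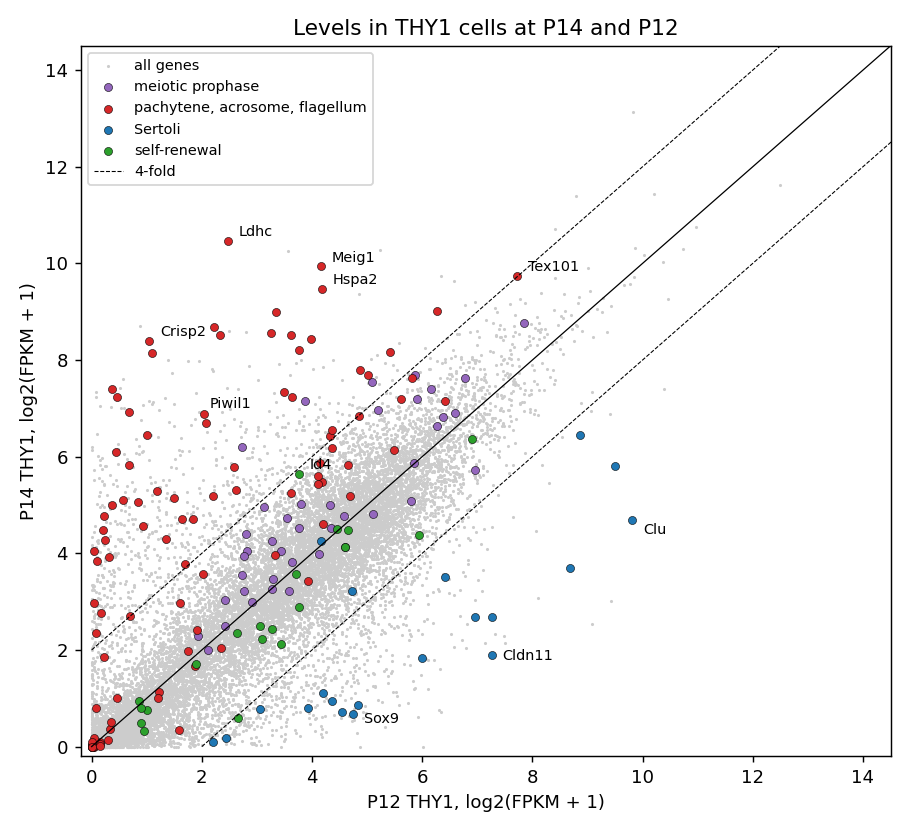
Level of each gene in THY1 cells at P12 (horizontal axis) and at P14 (vertical axis), as log2(FPKM + 1), with 1 point per gene, a diagonal of equal levels and dashed lines at 4-fold. Many genes of the pachytene stage, acrosome and flagellum (red) lie above the upper line and most Sertoli markers (blue) below the lower one, while most self-renewal genes (green) lie nearer the diagonal, with Id4 above it, Dusp6 and Spry4 below it and Egr3 below the lower line.

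Markers of somatic cells moved with this comparison. The summed level of 20 Sertoli markers was 3263 FPKM in P12 THY1 and 237 FPKM in P14 THY1, against 149 FPKM in the P7 Id4-GFP column. Fibroblast markers went the other way, with a sum of 483 FPKM at P12 and 1386 FPKM at P14. Peritubular myoid markers summed to 295 and 84.5 FPKM, endothelial markers to 120 and 46.2 FPKM and macrophage markers to 106 and 76.2 FPKM. In such bulk samples fewer cells of a type and less RNA per cell cannot be told apart. The part of these shifts in the germ cell differences described here was not tested.

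The genes with the largest differences upward were at low level at P12, all of the 15 under 5 FPKM apart from Fabp9. Ldhc, the lactate dehydrogenase of germ cells and sperm, stood at 4.54 FPKM at P12 and 1409 FPKM at P14, a difference of 7.99. Spata4 stood at 0.841 and 419 FPKM, and Crisp2, a cysteine-rich protein of the sperm acrosome and tail, at 1.07 and 334 FPKM. The next highest of the 11 columns for all 3 was P14 KIT, at 31.9 FPKM for Ldhc, 8.96 FPKM for Spata4 and 7.58 FPKM for Crisp2. Spink2, a protease inhibitor of the acrosome, stood at 1.14 and 280 FPKM. Adam5, a sperm membrane protein, stood at 0.378 and 149 FPKM, and Fabp9, a fatty acid binding protein of germ cells, at 10.8 and 1219 FPKM.

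Enzymes of sugar and glycerol metabolism filled 5 of the 15 leading places. Beside Ldhc they were the lactate dehydrogenase relative Ldhal6b (1.60 and 257 FPKM), the phosphoglycerate mutase gene Pgam2 (0.293 and 168 FPKM), the fructose bisphosphatase gene Fbp1 (0.0497 and 160 FPKM) and the glycerol kinase gene Gk2 (0.279 and 130 FPKM). Cmtm2a, Hrasls5 and the uncharacterised loci 4922502D21Rik, 1700020N18Rik and 1700019N12Rik make up the rest, with 127 to 195 FPKM at P14 and less than 1 FPKM at P12.

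By the rule that picked them, the 699 higher genes were 4-fold above P12 THY1 in P14 THY1. The counts below and the P12 median follow in part from that choice, and the same counts over all genes were not made. Of these genes 679 had their highest value of all 11 columns in P14 THY1 and 12 in P14 KIT. In 353 the level stayed under 5 FPKM in every column other than P14 THY1. The earlier THY1 columns were low in these genes, with medians of 2.32 FPKM at P0, 1.11 FPKM at P7 and 1.90 FPKM at P12.

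The sort markers differed in direction. Thy1 stood at 1.17 FPKM at P12 and 1.2 FPKM at P14, a difference of 0.02 whose sign turned when the columns were scaled to equal sums. Kit, the receptor of differentiating spermatogonia, stood at 15.4 and 24.1 FPKM, and Pou5f1, which encodes OCT4, at 10.5 and 9.02 FPKM. Ddx4, the gene of the RNA helicase VASA, stood at 113 and 248 FPKM. The labels call the cells spermatogonia, and spermatogonial transcripts were present at both ages, at P14 together with the spermatocyte transcripts above.

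Transcripts of stem cell self-renewal were mostly a little lower at P14, and Id4 was higher. Id4, an inhibitor of DNA-binding proteins that marks spermatogonial stem cells, stood at 12.6 FPKM at P12 and 49.1 FPKM at P14, a difference of 1.88. The P14 level lay between those of P7 Id4-GFP cells, 27.7 FPKM, and P0 Oct4-GFP cells, 62.5 FPKM. Of the 20 self-renewal genes 17 had a difference below 0, against 56.5% of all genes past the low-value filter. Among the 20 genes 4 stood under 1 FPKM at both ages, so their signs are uncertain. By 2-fold 3 were lower and 1, Id4, was higher, against 8.43% and 8.06% of all genes, expressed or not. Of genes past the low-value filter 15.2% were 2-fold lower, counted without the 5 FPKM minimum, so 3 of 20 is near that share. The median difference of the list was -0.41. Egr3, a transcription factor that the niche factor GDNF induces, stood at 5.30 and 0.498 FPKM. Dusp6 and Spry4, brakes on growth factor signalling, stood at 60.6 and 19.9 FPKM and at 9.81 and 3.38 FPKM. Gfra1 and Ret, which form the GDNF receptor, differed less, at 23.2 and 16.6 FPKM and at 24.2 and 21.3 FPKM.

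No member of the undifferentiated progenitor list passed 2-fold in either direction on the log2(FPKM + 1) scale. Its 18 genes ran from -0.97 to 0.43 with a median of -0.40. The adhesion gene Cdh1 stood at 5.20 and 2.17 FPKM, the uridine phosphorylase gene Upp1 at 38.6 and 19.6 FPKM, and the RNA-binding factor gene Lin28a at 79.6 and 44.2 FPKM. Taf4b, a gonadal form of a general transcription factor subunit, stood at 46.6 and 26.6 FPKM. Zbtb16, which encodes the progenitor transcription factor PLZF, stood at 61.1 and 47.4 FPKM. All 5 had their lower value at P14.

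Genes of differentiating spermatogonia were split. Dmrtb1, a transcription factor that governs the passage from mitosis to meiosis, stood at 1.89 FPKM at P12 and 53.4 FPKM at P14, a difference of 4.24. It stood at 5.84 and 62.6 FPKM in KIT cells of the same ages. At P7 it stood at 5.49 FPKM in THY1 and 42.7 FPKM in KIT cells, so in both selections the P12 value was below those of P7 and P14. The X-linked homeobox genes Esx1 (3.35 and 17.6 FPKM) and Rhox13 (9.20 and 23.6 FPKM) were 2-fold higher, as was Gm1564, now named Meioc, a gene needed to stay in meiotic prophase (45.4 and 110 FPKM). Stra8, which retinoic acid induces before meiosis, stood at 32.0 and 35.0 FPKM. In all 4 of 15 were 2-fold higher, with a median of 0.46, and the cyclin gene Ccnd2 was 2-fold lower, at 40.3 and 18.8 FPKM.

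Genes of early meiotic prophase differed less than pachytene genes. Of 9 genes of DNA break formation 3 were 2-fold higher, no gene passed 4-fold or was lower by 2-fold, and the median was 0.59. Hormad1 and Hormad2, proteins of the chromosome axis before pairing, stood at 35.9 and 124 FPKM and at 10.6 and 25.5 FPKM. Spo11, the enzyme that cuts the DNA, stood at 6.06 and 15.6 FPKM. Prdm9, which places the cuts, stood at 4.33 and 4.63 FPKM, and Mei1, needed for the cuts, at 4.32 and 7.13 FPKM.

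In the list of synaptonemal complex and meiotic cohesin genes 4 of 12 were 2-fold higher and the median was 0.64. Syce1, of the central element of the complex, stood at 33.2 and 185 FPKM, and 1700007E06Rik, now named Syce3, of the same element, at 57.7 and 207 FPKM. Tex12, also of the central element, stood at 58.8 and 146 FPKM, and the cohesin gene Stag3 at 70.6 and 167 FPKM. Other central element genes differed less or the other way: Syce2 stood at 96.0 and 120 FPKM, and 4930447C04Rik, now named Six6os1, had the lowest difference of the list, at 54.4 and 32.7 FPKM. Sycp3, of the lateral element, stood at 229 and 432 FPKM, under 2-fold, and the cohesin gene Rec8 at 8.68 and 8.59 FPKM.

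Of 20 recombination and crossover genes 6 were 2-fold higher and 1 was 2-fold lower (median 0.56). Cntd1, a cyclin-like factor of crossover maturation, stood at 5.63 and 72.9 FPKM. Psmc3ip, the recombinase partner also known as HOP2, stood at 13.6 and 140 FPKM. The crossover ubiquitin ligase gene Ccnb1ip1 stood at 7.73 and 30.0 FPKM and the mismatch repair gene Mlh3 at 5.98 and 20.2 FPKM. These 4 led the list. Dmc1, the meiotic recombinase itself, had its lower value at P14, with 23.4 and 16.4 FPKM, and Tex15, needed for loading recombinases, was the gene lower by 2-fold, at 123 and 51.8 FPKM.

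Regulators and markers of the pachytene stage were higher in most members: 18 of 23 by 2-fold, 8 by 4-fold and none lower by 2-fold, with a median of 1.64. Hspa2, the chaperone of pachytene spermatocytes, stood at 17.1 FPKM at P12 and 706 FPKM at P14. Ybx2, which stores messenger RNA in spermatocytes and spermatids, stood at 8.57 and 376 FPKM. Clgn, a chaperone for sperm surface proteins, stood at 10.2 and 160 FPKM, and Spata16, of acrosome formation, at 0.351 and 67.8 FPKM. The differences of these 4 ran from 3.84 to 5.67. Mybl1, which encodes the pachytene transcription factor A-MYB, differed less, at 17 and 43.2 FPKM. Rfx2, a transcription factor of spermatid and cilia genes, stood at 1.81 and 34.6 FPKM. Ccna1, a cyclin of the exit from prophase, was still low at P14, at 0.162 and 2.61 FPKM. The phosphatase gene Cdc25c was the 1 member with a difference below 0, at 14.2 and 9.78 FPKM.

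The piRNA pathway, which makes small RNAs that silence transposons, was higher in part of its genes, with Piwil1 in the lead. Piwil1, the pachytene Argonaute MIWI, stood at 2.85 FPKM at P12 and 120 FPKM at P14. Tdrd6, of the chromatoid body, stood at 0.370 and 41.3 FPKM, and Pld6, a nuclease of the mitochondrial surface, at 6.01 and 42.0 FPKM. Tdrd12 followed, at 16.1 and 72.5 FPKM. Piwil2, the Argonaute MILI of both branches, stood at 102 and 232 FPKM, and Piwil4, the Argonaute MIWI2 of fetal germ cells, at 10.1 and 7.04 FPKM. Of 22 genes 13 were 2-fold higher and 5 of them 4-fold, no gene was lower by 2-fold, and the median was 1.15.

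**Figure D2:**
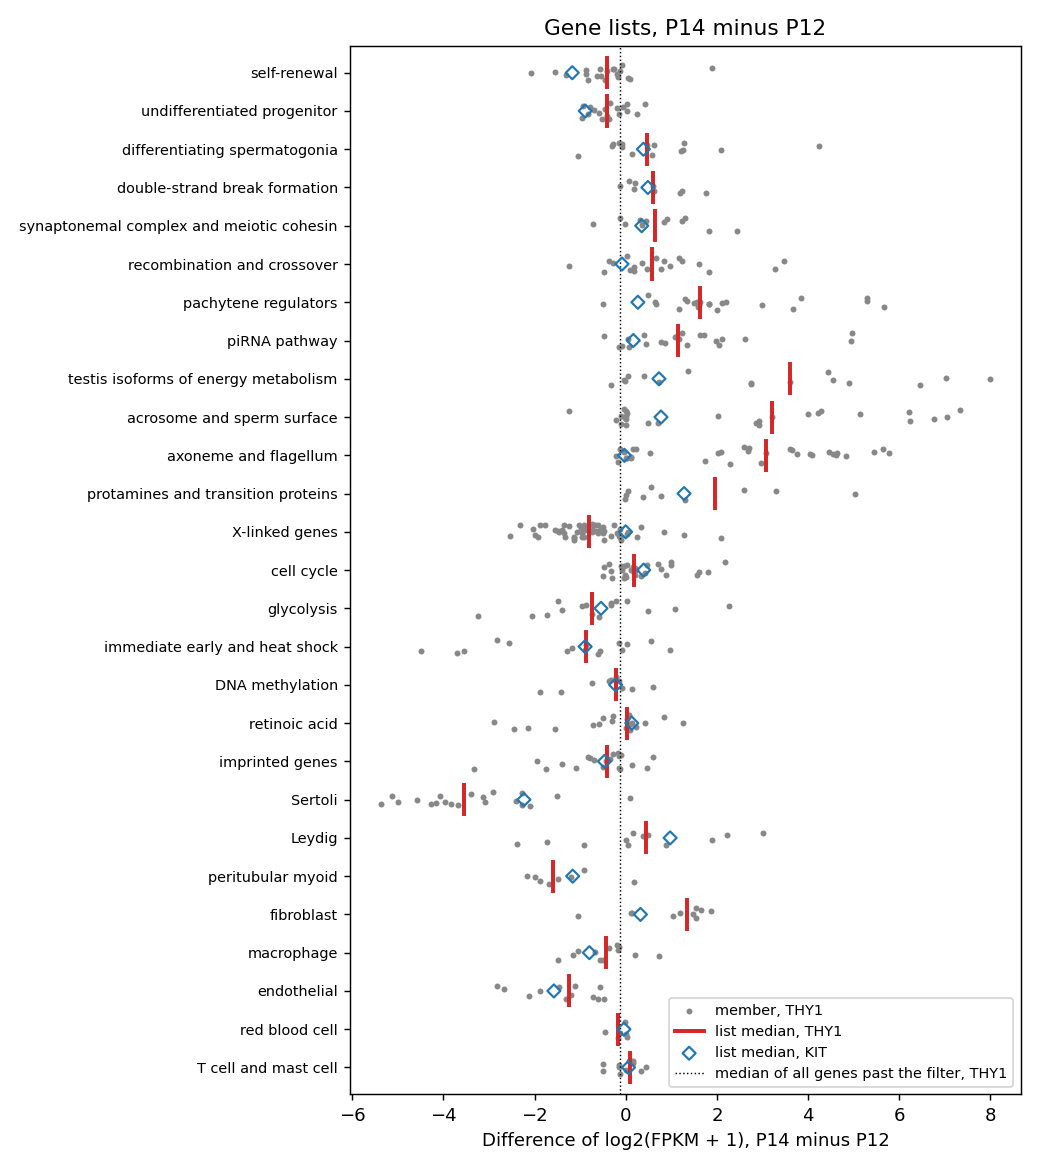
Difference of log2(FPKM + 1), P14 minus P12, of each member of the 27 gene lists in THY1 cells (grey points), with the median of the members past the low-value filter in THY1 cells (red bars) and in KIT cells (blue diamonds) and the median of all genes past the filter (dotted line, -0.12). The medians of energy isoforms, acrosome and axoneme lie between 3.08 and 3.60, that of Sertoli markers at -3.55, and that of X-linked genes at -0.80 in THY1 and near 0 in KIT cells.

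Testis isoforms of energy metabolism had a median difference of 3.60 over the 13 genes past the filter and 2.74 over all 16 in the table. It led the 27 lists on this scale, but not with a pseudocount of 0.1, where its median was 3.70 and that of the axoneme list 4.50. At 4-fold 9 were higher and none was lower. Beside Ldhc and Pgam2, Cox8c, a subunit of cytochrome oxidase, stood at 3.64 and 409 FPKM, and the glucose transporter gene Slc2a3 at 11.2 and 364 FPKM. The testis cytochrome c gene Cyct stood at 41.9 and 285 FPKM, and Pdha2, a subunit of pyruvate dehydrogenase, at 11.4 and 149 FPKM. Some isoforms of mature sperm were not among them. Gapdhs, the sperm glyceraldehyde phosphate dehydrogenase gene, was listed at 0 at P12 and at 0.0285 FPKM at P14, and Atp1a4, the sperm sodium pump gene, stood at 0.0489 and 0.0387 FPKM.

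Widely expressed genes and their germ cell relatives differed in opposite directions in many of the pairs set side by side. The 29 pairs held 27 different relatives, of which 19 reached 5 FPKM at P12. Of the 27 relatives 18 were 2-fold higher at P14, 15 of them 4-fold, and no relative was lower by 2-fold. Of the 29 partners 7 were 2-fold lower and 1 was 2-fold higher. One partner, the transketolase-like gene Tktl1, is itself a germ cell gene and was little different, at 45.8 and 30.4 FPKM. The relative's share of the pair's summed FPKM was larger at P14 in 27 of the 29 pairs. The exceptions were the transcription factor subunit genes Taf7 and Taf7l, where the share of Taf7l was 68.5% at P12 and 64.3% at P14, and the chaperone genes Calr and Calr3, where that of Calr3 was 0.685% and 0.416%.

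In several pairs the relative held the minor share at P12 and the major share at P14. The glucose transporter gene Slc2a1 stood at 34.5 and 11.6 FPKM, and the share of Slc2a3 was 24.6% and 96.9%. For the centrin genes Cetn2 and Cetn1, of the centriole, the share of Cetn1 was 6.4% and 90.0%. For the chaperone genes Hspa8 and Hspa2 the share of Hspa2 was 10.3% and 88.2%. All 3 relatives held the smaller share at P12 and the larger one at P14. Papolb, of messenger RNA tailing, reached a share like that of its partner Papola (4.1% and 50.1%).

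Lactate dehydrogenase showed each pattern in 1 family. Ldha, the muscle-type subunit gene, was the 1 widely expressed gene that was 2-fold higher, at 45.6 and 222 FPKM. Ldhb, the heart-type subunit gene, was the 1 that was 4-fold lower, at 109 and 10.6 FPKM. It stood at 8.32 FPKM in P7 Id4-GFP cells and at 39.5 and 10.5 FPKM in KIT cells at P12 and P14. Sertoli markers were lower in both selections too, and their part in the Ldhb difference was not tested. The share of Ldhc beside Ldha was 9.1% and 86.4%. Several relatives, among them Pgk2, Pdha2, Cetn1 and Pabpc2, are retrogenes, intronless copies of their partners, so reads could be split between copies and these levels are uncertain. Pgk1, Cycs, Rpl10 and Gapdh stood under 5 FPKM at both ages although most cells use them. The shares in their pairs therefore rest on doubtful values.

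**Figure D3:**
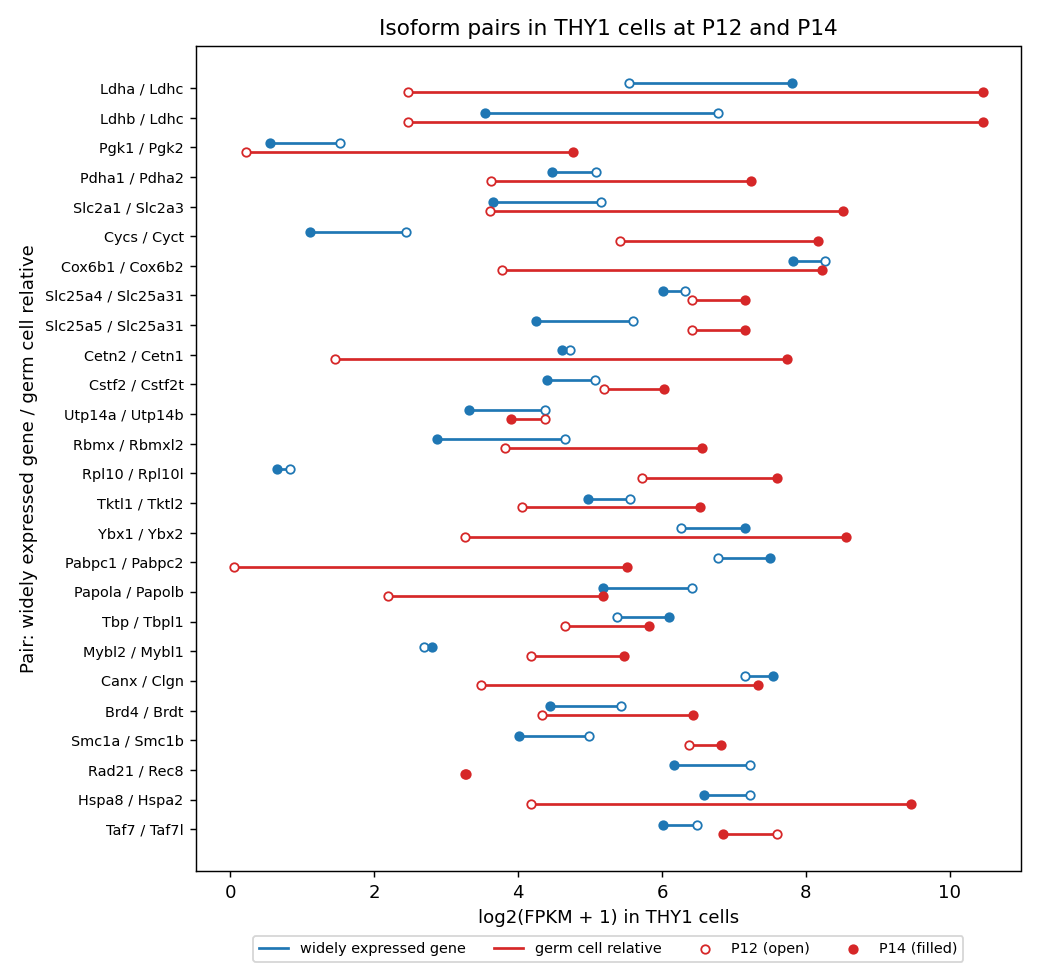
Levels in THY1 cells of a widely expressed gene (blue) and its germ cell relative (red) for the 26 pairs whose relative reached 5 FPKM, as log2(FPKM + 1) at P12 (open) and P14 (filled). The red lines of Ldhc, Cetn1, Pabpc2, Hspa2 and Ybx2 run to the right by 5.29 to 7.99 units, and most blue lines are shorter and run to the left.

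The promoters of 4 higher genes show where letters known from late meiotic and cilia genes stand before the start of transcription. They are those of Ldhc, with the largest difference, of Piwil1, and of Ldhal6b and Pdcl2. Ldhal6b and Pdcl2 had the largest differences among genes whose first listed promoter held an RFX core, with genes of a single chromosome left out. Pdcl2, a germ cell phosducin-like chaperone gene, stood at 2.87 and 252 FPKM. Each is the 250 bases before the start from RefSeq (GRCm38.p6), written 5′ to 3′ on the gene's strand, at chr7:46861013-46861262 (plus strand), chr5:128735996-128736245 (plus), chr17:5418768-5419017 (minus) and chr5:76331157-76331406 (minus). Capitals mark the motifs searched on both strands: the MYB core AACNGNC, the cAMP response element TGACGTCA and its short form TGACGT, which lies within the full element, the RFX core GTTGCCA and the E-box CACGTG.
Ldhc: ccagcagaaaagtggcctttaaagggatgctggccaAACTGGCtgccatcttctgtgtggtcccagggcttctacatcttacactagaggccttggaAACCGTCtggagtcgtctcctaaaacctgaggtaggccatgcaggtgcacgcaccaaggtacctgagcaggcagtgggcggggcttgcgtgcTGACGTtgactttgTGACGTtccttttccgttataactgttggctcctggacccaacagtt
Piwil1: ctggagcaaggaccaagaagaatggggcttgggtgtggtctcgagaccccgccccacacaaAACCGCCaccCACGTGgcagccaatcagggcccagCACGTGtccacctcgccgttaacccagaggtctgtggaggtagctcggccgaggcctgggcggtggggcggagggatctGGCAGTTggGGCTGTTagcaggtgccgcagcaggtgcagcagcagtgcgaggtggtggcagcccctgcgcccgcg
Ldhal6b: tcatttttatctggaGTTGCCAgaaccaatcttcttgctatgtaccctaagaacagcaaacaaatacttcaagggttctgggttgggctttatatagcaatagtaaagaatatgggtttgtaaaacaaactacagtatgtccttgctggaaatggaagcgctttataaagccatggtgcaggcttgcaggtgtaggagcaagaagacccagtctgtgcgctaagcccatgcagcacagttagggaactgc
Pdcl2: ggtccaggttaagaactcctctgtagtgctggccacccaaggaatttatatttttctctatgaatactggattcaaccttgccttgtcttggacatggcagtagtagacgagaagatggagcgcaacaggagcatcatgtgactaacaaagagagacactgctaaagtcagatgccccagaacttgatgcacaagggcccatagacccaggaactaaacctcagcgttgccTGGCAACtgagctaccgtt

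In Ldhc the capitals are 2 MYB cores and 2 short cAMP elements, and in Piwil1 they are 3 MYB cores and 2 E-boxes. Ldhal6b and Pdcl2 have 1 RFX core each, that of Pdcl2 between 19 and 13 bases before the start. Promoters were found for 555 of the 699 higher genes and 456 of the 582 lower genes. The RFX core was in 9.01% of the higher genes with a promoter, 1.10% of the lower genes and 4.19% of all 27025 genes of the promoter table. For the MYB core the shares were 41.6%, 28.3% and 30.6%, and with only the first listed promoter of each gene 37.5%, 21.9% and 27.6%. The E-box stood in 10.3%, 9.21% and 6.86%, the full cAMP element in 1.98%, 2.19% and 1.77% and its short form in 7.57%, 10.3% and 7.29%. Among genes past the low-value filter the shares were 4.02% for the RFX core, 32.3% for the MYB core, 9.93% for the E-box, 3.02% for the full cAMP element and 11.2% for its short form. Against these the higher genes were near the background in the E-box and below it in both cAMP elements. A match is a run of letters and shows no binding.

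Genes of the acrosome and sperm surface were mostly either far higher at P14 or near 0 at both ages. Of 27 genes 14 were 4-fold higher and none was 2-fold lower by the size rule, and 9 stood under 1 FPKM at both ages. The median difference was 3.20 over the 15 genes past the filter and 2.02 over all 27. Adam2, a sperm surface protein of fertilin, stood at 0.609 and 120 FPKM, beside Crisp2, Spink2 and Adam5 above. Dkkl1, of the acrosome, stood at 4.0 and 367 FPKM, and the zona binding protein gene Zpbp2 at 0.788 and 32.4 FPKM. Acr, the acrosomal protease acrosin, stood at 0.159 and 21.4 FPKM. Other genes of the same organelle were low: Acrv1 stood at 0.0257 FPKM at P12 and was listed at 0 at P14, and Spaca3 was listed at 0 at both ages. The fusion protein gene Izumo1 stood at 1.33 and 1.18 FPKM.

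Genes of the flagellum and its axoneme largely followed the same division. Of 33 genes 20 were 4-fold higher, none was 2-fold lower, and 9 stood under 1 FPKM at both ages (median 3.08 over 21 genes past the filter, 2.68 over all). Meig1, needed for assembling the manchette of the spermatid, stood at 16.8 and 978 FPKM. Rsph1, of the radial spoke, stood at 9.20 and 512 FPKM, Spag6, of the central pair, at 0.996 and 86.1 FPKM, and Tekt1, of the microtubule doublets, at 3.12 and 117 FPKM. The heavy chain gene of dynein Dnahc8 stood at 3.23 and 102 FPKM. Genes of the outer dense fibres and fibrous sheath, which form later, differed among themselves. Odf2 stood at 31.5 and 207 FPKM, whereas Odf1 stood at 0.253 and 0.282 FPKM and Akap4 at 0.279 and 0.426 FPKM. Catsper2, of the sperm calcium channel, stood at 2.23 and 12.8 FPKM, and Catsper1 was listed at 0 at both ages.

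Chromatin genes of haploid cells were low at both ages, and testis histones were high. Prm1, which encodes protamine 1, was listed at 0 at P12 and stood at 1.46 FPKM at P14. Prm2 stood at 0.0745 and 0.584 FPKM, Tnp1, a transition protein gene, at 3.60 and 4.93 FPKM and Tnp2 at 0.0439 and 0.780 FPKM. None of these 4 passed 5 FPKM at P12 or P14. In P7 THY1 cells they stood higher, with Prm1 at 100.9 FPKM, Tnp1 at 55.0 FPKM, Tnp2 at 37.7 FPKM and Prm2 at 29.7 FPKM. The histone genes in the same list were the 3 of its 10 members that were 4-fold higher. Hist1h1t, the linker histone of spermatocytes, stood at 36.8 and 1234 FPKM, Hist1h2ba at 909 and 8956 FPKM and Hist1h2aa at 443 and 2689 FPKM. Histone genes are near-identical copies, so their levels are uncertain.

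X-linked genes had mostly lower values at P14. In a hand-written list of 58 genes of the X chromosome 51 (87.9%) had a difference below 0, against 56.5% of all genes past the filter. At 2-fold 20 were lower and 2 higher, and the median was -0.80. Atrx, a chromatin remodeller, stood at 52.9 FPKM at P12 and 8.24 FPKM at P14, and Ogt, which attaches sugar to nuclear proteins, at 97.1 and 18.7 FPKM. Sms, the spermine synthase gene, stood at 5.43 and 0.575 FPKM. These 3 were the X-linked genes lower by 4-fold, and Usp9x, a deubiquitinase gene, at 111 and 28.7 FPKM, and Rlim, a ubiquitin ligase gene, at 71.9 and 17.4 FPKM, came next. The 10 germ cell genes of the list had a median of -0.54 and the other 48 one of -0.94. Taf7l stood at 193 and 114 FPKM and the RNA export factor gene Nxf2 at 118 and 62.2 FPKM, while Esx1 and Rhox13 were the 2 higher members.

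In KIT cells of the same ages the X-linked list had a median of 0.00, and 29 of its 58 genes (50%) had a difference below 0. Taf7l stood at 370 and 377 FPKM there and Nxf2 at 146 and 144 FPKM. Atrx and Ogt were lower in KIT cells too, at 46.4 and 12.3 FPKM and at 71.0 and 27 FPKM. Sertoli markers were lower in both selections, and their part in the X-linked differences was not tested.

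Cell cycle genes as a list differed little, with a median of 0.19 and 4 of 30 genes 2-fold higher. These genes act in mitosis or the meiotic divisions: the kinase gene Aurka stood at 13.9 and 66.2 FPKM, Cdc20, an activator of the anaphase complex, at 33.6 and 121 FPKM, Birc5 at 16.3 and 52.0 FPKM and the cyclin gene Ccnb2 at 29.5 and 89.4 FPKM. Genes of DNA replication did not pass 2-fold on the log2(FPKM + 1) scale and were not all alike, with Mcm2 at 64.9 and 61.1 FPKM, Mcm7 at 48.6 and 84.3 FPKM, Pcna at 44.5 and 82.5 FPKM and Rrm2 at 7.45 and 15.8 FPKM.

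Glycolysis genes of wide expression had a median of -0.74, with 5 of 16 lower by 2-fold and 2 higher. After Ldhb and Ldha, the liver-type phosphofructokinase gene Pfkl stood at 15.6 and 3.00 FPKM and the hexokinase gene Hk2 at 37.9 and 10.8 FPKM. The triose phosphate isomerase gene Tpi1, at 28.6 and 61.4 FPKM, was the other higher gene. Gapdh stood at 0.305 and 0.0463 FPKM. Every cell uses Gapdh, so low values of this table can be failed estimates.

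Retinoic acid genes, which time the entry into meiosis, were split. Rdh10, an enzyme that makes retinaldehyde, stood at 47.4 and 5.51 FPKM, and Stra6, a receptor for the retinol carrier, at 6.45 and 0.353 FPKM. Cyp26a1, which degrades retinoic acid, stood at 7.72 and 0.987 FPKM, whereas Cyp26b1, with the same task, stood at 20.7 and 50.7 FPKM. In all 4 of 20 were 2-fold lower and 1 was 2-fold higher, with a median of 0.02 whose sign turned with the scaling. Sertoli markers had the same direction as Rdh10, and their part in it was not tested.

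Genes of DNA methylation and imprinting were mostly lower or little different. The demethylase genes Tet2 and Tet3 were the 2 of 10 that passed 2-fold, both lower, at 8.65 and 1.62 FPKM and at 19.4 and 6.58 FPKM. Dnmt3a, a methyltransferase gene, stood at 23.0 and 13.5 FPKM, and Uhrf1, a partner of the maintenance methyltransferase, at 27.2 and 41.5 FPKM. Among 21 imprinted genes 4 were 2-fold lower and none higher (median -0.42). Of all genes 8.43% were 2-fold lower, and of genes past the filter 15.2% without the 5 FPKM minimum, so both counts are near that share. In P7 Id4-GFP cells Tet2 stood at 0.515, Plagl1 at 0.682, Peg10 at 5.80 and Tet3 at 13.0 FPKM. Sertoli markers were lower as well, and their part in these differences was not tested. Peg10, a gene derived from a retrotransposon, stood at 39.7 and 3.02 FPKM, the noncoding Kcnq1ot1 at 9.44 and 1.70 FPKM, Impact at 17.2 and 4.44 FPKM and the transcription factor gene Plagl1 at 10.8 and 3.47 FPKM.

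Immediate early and heat shock genes, which cells switch on in response to signals and stress, were lower in 7 of 16 members by 2-fold and higher in none (median -0.88). Atf3 stood at 62.3 and 1.80 FPKM, Ier3 at 128 and 9.96 FPKM, the small heat shock gene Hspb1 at 25.0 and 0.999 FPKM and Hspa1a at 17.9 and 1.66 FPKM. Reads of Hspa1a can be shared with its near-identical neighbour Hspa1b, so both levels are uncertain. Fos, in contrast, stood at 104 and 154 FPKM.

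Of the 15 genes with the largest differences downward 3 belong to the Sertoli list, Clu, Cldn11 and Aard. Clu, which encodes the secreted chaperone clusterin, stood at 900 FPKM at P12 and 24.8 FPKM at P14. Cldn11, of the tight junctions of the tubule, stood at 152 and 2.70 FPKM, and Aard at 410 and 11.9 FPKM. Outside that list, the cystatin genes Cst9 and Cst12 led, at 542 and 4.78 FPKM and at 685 and 7.06 FPKM. Also outside it, the matrix gene Thbs1 stood at 80.4 and 0.638 FPKM, the receptor gene Tnfrsf12a at 181 and 3.42 FPKM, the chemokine gene Cxcl1 at 140 and 3.43 FPKM and Gatm, of creatine synthesis, at 273 and 7.47 FPKM. Lars2, the mitochondrial leucine ligase gene, stood at 63.8 FPKM and was listed at 0 at P14, as it was in P14 KIT, so no fold is given. Etd, Wfdc10, Gstm6, Prrg4 and 8030411F24Rik stood between 39.3 and 177 FPKM at P12 and between 0.319 and 4.02 FPKM at P14. In P7 Id4-GFP cells Cst9 stood at 2.48 FPKM and Cst12 at 4.02 FPKM, near the listed marker Aard at 2.91 FPKM. Whether the genes outside the list come from Sertoli cells was not tested.

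Of 20 Sertoli markers 16 were 4-fold lower, 17 were 2-fold lower and none was higher by 2-fold (median -3.55). The fate factor gene Sox9 stood at 25.8 and 0.600 FPKM, Wt1 at 62.9 and 2.55 FPKM and the hormone gene Amh at 27.4 and 0.826 FPKM. The defensin gene Defb36 stood at 153 and 5.41 FPKM. Kitl and Gdnf, signals from Sertoli cells to KIT and to the GDNF receptor of germ cells, stood at 83.9 and 10.3 FPKM and at 7.30 and 0.721 FPKM. No marker of the list was listed at 0 at either age. Trf, the transferrin gene, was the 1 with a difference above 0, at 17 and 18.1 FPKM.

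Other somatic lists differed in both directions. Fibroblast markers were 2-fold higher in 7 of 10 members (median 1.34), with the collagen genes Col3a1 at 101 and 372 FPKM, Col1a2 at 93.0 and 295 FPKM and Col1a1 at 42.1 and 125 FPKM and the fibril gene Mfap5 at 5.58 and 18.1 FPKM. Myoid markers were 2-fold lower in 5 of 8 (median -1.59), with the smooth muscle genes Acta2 at 165 and 35.8 FPKM, Myh11 at 27.6 and 6.15 FPKM and Tagln at 43.3 and 11 FPKM. Endothelial markers were 2-fold lower in 6 of 12 (median -1.25), with Pecam1 at 17.6 and 1.61 FPKM and Emcn at 11.9 and 1.02 FPKM. Leydig markers were split: the hormone gene Insl3 stood at 16.8 and 81.3 FPKM and the steroid enzyme gene Hsd3b6 at 2.59 and 27.9 FPKM, and Hsd17b3 stood at 7.12 and 0.543 FPKM. Macrophage markers were 2-fold lower in 2 of 12 (median -0.43), with Cd68 at 7.77 and 2.92 FPKM and Lyz2 at 19.2 and 11.7 FPKM. The 2 with a difference above 0 were C1qa, at 11.3 and 13.3 FPKM, and Cx3cr1, at 0.851 and 2.09 FPKM. All red cell markers, and 10 of 12 T and mast cell markers, stood under 1 FPKM at both ages. Fibroblast and Sertoli markers lay on opposite sides, and somatic markers as a whole were not lower together.

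Part of the lower genes also had transcripts in sorted P7 germ cells, which does not tell their source at P12. The Sertoli markers Clu and Ctsl, both 4-fold lower, stood at 7.24 and 81.6 FPKM in P7 Id4-GFP cells. Of the 582 lower genes 337 stood under 5 FPKM in both P7 GFP columns, and 175 reached 5 FPKM in P7 Id4-GFP cells. Of the 699 higher genes 458 and 228 did so, and the same counts over all genes were not made. In 29 the P12 THY1 level was at most 2-fold the Id4-GFP level. Among them were Ogt and the kinase gene Map4k4 (58.5 FPKM in Id4-GFP cells, against 116 and 18.2 FPKM in THY1 cells at P12 and P14). Another, 2610528E23Rik, stood at 9.80 FPKM at P12 and was listed at 0 at P14, as it was in P0 THY1 and P7 KIT cells. Leaving out the Sertoli markers and all genes under 5 FPKM in P7 Id4-GFP cells, a choice made after seeing the data, left 228 higher and 173 lower genes.

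The same ages in KIT cells gave far fewer higher genes, and most of their lower genes were lower in THY1 cells too. In KIT cells 27 genes were 4-fold higher (0.129%) and 302 were 4-fold lower (1.45%), and at 2-fold 543 were higher (2.60%) and 1098 lower (5.26%). The 2 comparisons share no column. Of the higher genes 16 were called in both, 2.29% of the THY1 list and 59.3% of the KIT list. Of the lower genes 239 were called in both, 41.1% of the THY1 list and 79.1% of the KIT list. No gene was 4-fold higher in one and 4-fold lower in the other. Over 14200 genes Pearson's r of the 2 sets of differences was 0.667. It describes the spread over genes, and genes do not count as replicates.

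The genes higher in THY1 cells had a median difference of 3.05 there and of 0.40 in KIT cells. In KIT cells 115 of the 699 were 2-fold higher, counted without the 5 FPKM minimum. The 582 lower genes had a median of -2.61 in THY1 and -1.84 in KIT cells, where 509 were 2-fold lower and none was 2-fold higher, also without that minimum. These counts cannot be set beside the 2-fold counts of KIT cells above, which use the minimum. Both sets were picked by their THY1 difference, so a larger median in THY1 than in KIT cells follows in part from that choice. Hspa2 stood at 28.6 and 61.0 FPKM in KIT cells, Ybx2 at 25.8 and 30.0 FPKM and Piwil1 at 5.85 and 8.32 FPKM. Each had a larger difference in THY1 cells, by which it was also named. Mybl1 stood at 34.7 FPKM in P12 KIT and 23.4 FPKM in P14 KIT cells. Early prophase genes had high levels in KIT cells at both ages, with Sycp3 at 523 and 540 FPKM and Dmc1 at 85.1 and 84.4 FPKM. Whether the THY1 and KIT differences differ beyond the spread between libraries could not be tested.

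**Figure D4:**
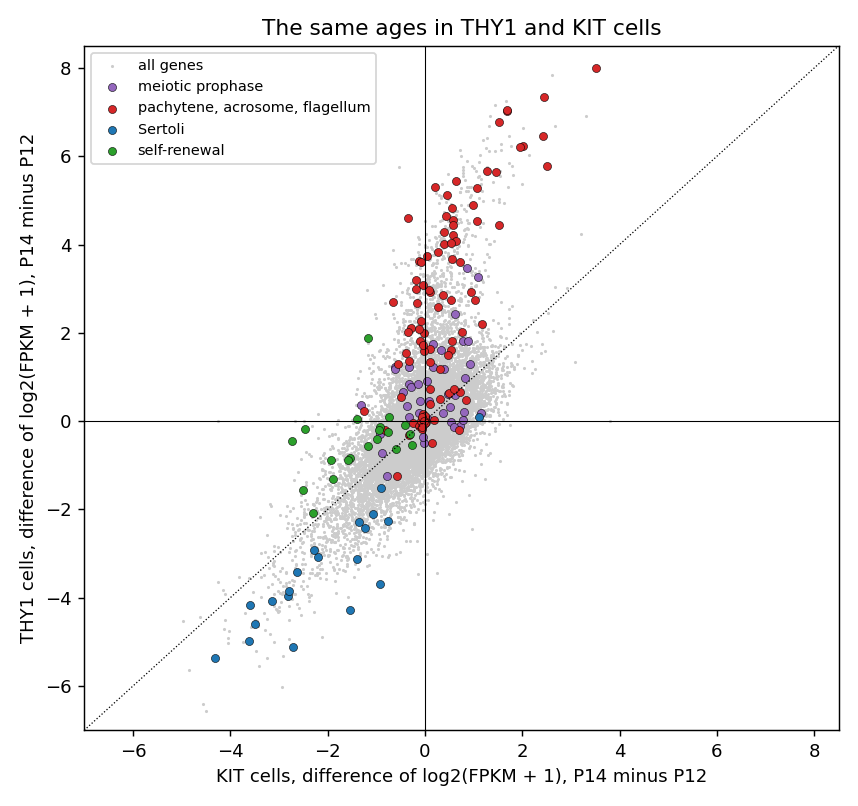
Difference of log2(FPKM + 1), P14 minus P12, in KIT cells (horizontal axis) and THY1 cells (vertical axis) for all genes, with the line of equal differences dotted. Many genes of the pachytene stage, acrosome and flagellum (red) lie far above the line, up to 7.99 in THY1 against 3.51 in KIT cells for Ldhc, and others, such as Cdc25c and Adam1a, lie on or below it. All 20 Sertoli markers (blue) lie below the line, and all but Trf at the lower left.

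Somatic markers also differed in KIT cells. The Sertoli list summed to 1226 FPKM at P12 and 329 FPKM at P14 there, with a median difference of -2.23, and all 20 markers had a lower difference in THY1 than in KIT cells. Leydig markers summed to 294 and 733 FPKM in KIT cells, against 159 and 252 FPKM in THY1 cells. Self-renewal genes had a median of -1.17 in KIT cells, where 8 of 20 were 2-fold lower, and Gfra1 stood at 12.3 and 0.992 FPKM. Across all 11 columns the plot of levels shows Ldhc, Hspa2, Meig1, Crisp2 and Pgam2 set apart in P14 THY1, while Sycp3 and Stra8 were highest in the KIT columns of P12 and P14.

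**Figure D5:**
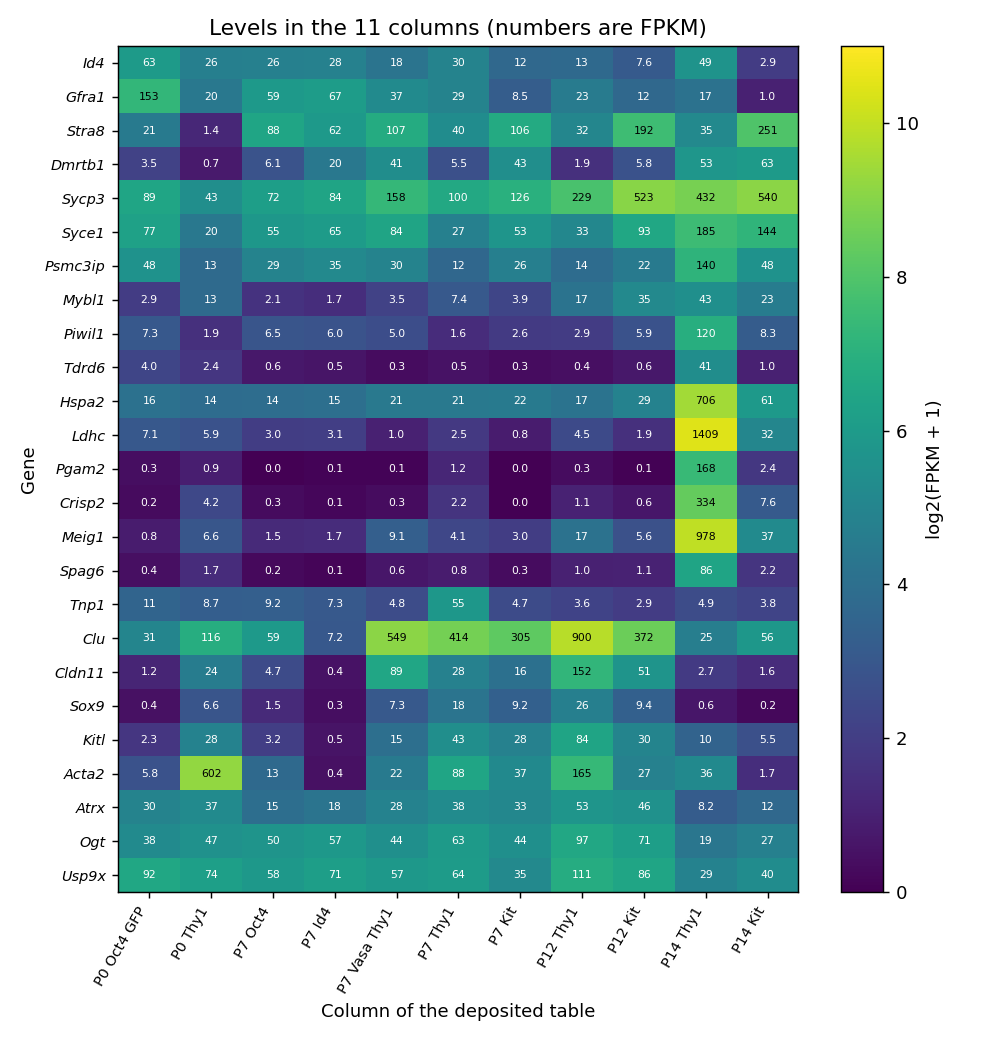
Levels of 25 genes (rows) in the 11 columns of the deposited table, coloured by log2(FPKM + 1), with the FPKM printed in each cell. The P14 THY1 column holds the highest value of every row from Mybl1 to Spag6, among them Ldhc at 1409 FPKM, and P12 THY1 holds the highest value of Clu, Cldn11, Sox9, Kitl, Atrx, Ogt and Usp9x.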

How the data were processed

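RNA from mouse testis germ cells was sequenced, and the authors deposited 1 table of FPKM values, 20889 genes in 11 columns. CASAVA, TopHat2 2.0.9, Cufflinks 2.1.1 and mm9 are named per the submitters' processing notes, with no role or order given. P12 THY1 is 1 column for 2 libraries, and how they were combined is not given in the sources used here. Depth is unknown: below 0.05 FPKM in both columns, 77 of 479 genes (16.1%) had a P12 to P14 ratio within 1% of 0.957, too few to recover reads. With 1 value per group there was no test.

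Differences of log2(FPKM + 1) were computed in Python 3.11.15 with numpy 2.4.6 and pandas 2.3.3, and plotted with matplotlib 3.10.9. The script was tested on simulated data. List medians used genes with at least 1 FPKM in at least 2 columns. Genes named were the sort markers, the 15 largest differences each way, up to 4 per list with the largest differences and at least 5 FPKM, and pairs whose relative reached 5 FPKM. Others were named for their known role after their values were seen. The members and lists were chosen with earlier results of these data known. In the lists 10 symbols were matched through synonyms. Promoters came from RefSeq (GRCm38.p6) and were used for sequence and motifs only, with no coordinates shared with the table. Alternatives were other folds, minimums, pseudocounts, scalings and columns. Bisulfite and chromatin samples were not analysed here. 1 gene of the lists is not reported here.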

Additional observations from a re-analysis of the deposited data

Results flagged for a closer look

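8 genes differed by 2-fold or more in opposite directions between the ages in THY1 and in KIT cells, with 1 value per group. The difference between the selections was not tested. The gap is the THY1 difference minus the KIT difference of log2(FPKM + 1). Id4 had a gap of 3.04, with 12.6 FPKM at P12 and 49.1 FPKM at P14 in THY1 cells and 7.62 and 2.85 FPKM in KIT cells. Eid3 had the largest gap, 4.17, with 13.5 and 113 FPKM in THY1 and 8.79 and 3.27 FPKM in KIT cells. The gap of 4930534B04Rik was 3.47 (3.62 and 24.0 FPKM in THY1, 13.9 and 6.30 FPKM in KIT cells). Dnahc2, a dynein heavy chain gene, had a gap of 2.58 (1.19 and 5.18 FPKM, 6.10 and 2.35 FPKM), and Enkur one of 2.54 (9.03 and 25.8 FPKM, 10.8 and 4.42 FPKM). The gap of the receptor kinase gene Grk4 was 2.39 (12.2 and 32.1 FPKM, 25.9 and 11.8 FPKM). For Pxt1 it was 2.21 (13.4 and 30.6 FPKM, 7.17 and 2.88 FPKM). Mt3, a metallothionein gene, was the 1 with a negative gap, -2.54, at 9.50 and 3.23 FPKM in THY1 and 3.79 and 10.2 FPKM in KIT cells.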

How the results depend on the processing

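Against 699 higher and 582 lower genes, the counts were 1684 and 1760 at 2-fold and 361 and 180 at 8-fold. With only genes of at least 5 FPKM in at least 2 columns, 346 were higher and 39.1% of the called genes were higher, against 54.6%. The P14 KIT minus P12 KIT comparison gave 27 and 302. Leaving out Sertoli markers and genes under 5 FPKM in P7 Id4-GFP cells, chosen after seeing the data, gave 228 and 173. In these settings the tested genes or the fold differ by construction. With pseudocounts, minimums, scalings or P7 THY1 as the earlier column, both counts stayed within 1.5 times. The genes behind the counts were not always the same. With P7 THY1 as the earlier column, 647 of the 699 higher genes but only 267 of the 582 lower genes were called again. Scaling to equal sums gave 755 and 763 (49.7% higher). Scaling to the sum without Rmrp, added after seeing the data, gave 618 and 698 (47.0% higher) and shifted the median of all genes by -0.13. Of 108 recomputed list medians 100 moved little, 7 moved more and 1 turned: retinoic acid, -0.0232 with columns scaled to equal sums (0.02 as deposited). The cause was not tested. Among 124 named genes the sign turned only for Thy1, under the 2 sum scalings. No paired analysis was possible because each group has 1 value, and for the same reason no replicate could be left out. Depth is unknown, so how far low values are limited by it cannot be given.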

Other observations

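The genes below were chosen after their values were seen. Of 12 intraflagellar transport genes with the prefix Ift, 5 were 4-fold higher at P14, none of them in the axoneme list, among them Ift140 (17.4 and 115 FPKM at P12 and P14) and Ift80 (10.4 and 64.9 FPKM). In KIT cells Ift140 stood at 20.6 and 23.0 FPKM. Of 143 genes with the prefix Ccdc 26 were 4-fold higher (18.2%), as were 13 of 63 with Lrrc (20.6%) and 10 of 43 with Ttc, against 3.35% of all genes. These were picked from a longer set of prefixes. In that set, of 38 genes with Kif 2 were higher and 3 lower, and of 22 with Gst 4 were higher and 4 lower. Outside the lists, the carnitine acetyltransferase gene Crat stood at 5.44 and 98.1 FPKM, the sorbitol dehydrogenase gene Sord at 4.68 and 126 FPKM and the fructose transporter gene Slc2a5 at 0.592 and 30.0 FPKM. The transcription factor gene Rfx4 stood at 0.104 and 15.3 FPKM.

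Of 9 genes with the prefix Nfkb, picked from the same set, 4 were 4-fold lower, against 2.79% of all genes. Nfkbia stood at 88.3 and 8.03 FPKM and Nfkb2 at 28.7 and 3.04 FPKM. The signalling inhibitor gene Tnfaip3 stood at 35.8 and 0.956 FPKM and the chemokine gene Ccl2 at 23.3 and 0.949 FPKM. In KIT cells Nfkbia stood at 36.1 and 6.98 FPKM. The nuclear noncoding RNAs Neat1 and Malat1 were lower in both selections. In THY1 cells Neat1 stood at 105 and 3.60 FPKM and Malat1 at 1332 and 169 FPKM, and in KIT cells Neat1 stood at 95.2 and 2.07 FPKM and Malat1 at 983 and 204 FPKM. Sertoli and endothelial markers were lower as well, and their part in these values was not tested.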
